A study of Bos taurus with 2 samples.

Results

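The regions described here are 899 bins of 5 kb with few to moderate CpGs on the proximal long arm of the cattle Y chromosome. They are all bins between positions 17650001 and 24000000 of chromosome Y, in the ARS-UCD2.0 assembly, that hold 5 to 99 CpGs. The stretch has 1270 bins, of which 899 met this rule, 371 held 100 or more CpGs and 0 held fewer than 5. The whole chromosome had 11882 bins with 5 or more CpGs. The rule used position and CpG count and no methylation value.

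Lung DNA was read on PacBio HiFi and on Oxford Nanopore Technologies (ONT) instruments, each with 1 library. The animal was a male F1 fetus of a Wagyu sire and a Charolais dam at 120 days of gestation, so the Y chromosome is of Wagyu origin. No treatment or control group was described, and the files cover the Y chromosome, so the lung label could not be checked against markers of lung cells. With 1 library per platform no test across samples was possible, and every spread below is the SD over bins, copies or CpGs of a library.

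In mammalian DNA most CpGs outside active promoters carry a methyl group on the cytosine of both strands, since the maintenance methyltransferase copies the mark to the new strand at replication. Mammalian Y chromosomes also carry amplicons, which are long repeated segments with many copies of genes that act mainly in the testis. In cattle these include TSPY, a testis-specific Y-encoded gene of spermatogonia, PRAME, a cancer-testis antigen family, the zinc finger genes ZNF280A and ZNF280B, and HSFY, a heat shock transcription factor gene. No base sequence was read, so the regions are shown by position, CpG content and annotated genes.

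The 899 bins held 62318 CpGs, all with at least 10 PacBio reads. The median PacBio depth per CpG was 41 reads, with 29 at the 5th percentile and 53 at the 95th. A CpG with 41 reads, 28 of them modified by the model-estimated count, has a level of 68.3%. Its 95% Wilson interval is 53.0 to 80.4%, which takes that estimate as a count of reads and covers no other error. The median bin summed 2940 read observations, and neighbouring CpGs share reads. The ONT values are percentages without read counts, so their depth is unknown.

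The mean PacBio level of the members was 59.0% ± 12.5 (SD, n = 899 bins), with a range of 17.7 to 95.7%. The mean ONT level was 42.3% ± 8.74 (SD, n = 899 bins), with a range of 17.9 to 82.7%. ONT was the lower platform in 886 of 899 bins, by 16.6 points ± 9.40 on average. The share, 98.6%, was near the background of 97.8% over all bins of the chromosome, where the mean of ONT less PacBio was -10.0 points ± 6.67. The 371 bins of the same stretch with 100 or more CpGs had means of 66.7% ± 5.98 on PacBio and 44.9% ± 7.43 on ONT. The difference, members less denser bins, was thus -7.71 points on PacBio and -2.57 points on ONT, both smaller than 1 SD over the members. On PacBio it was larger than the SD over the denser bins, and on ONT it was smaller. The ONT difference changed sign with the strand row used, at -13.6 points on the minus row and 8.43 points on the plus row. Averaged over all CpGs in place of bins, the PacBio difference was -4.49 points.

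Levels under 40% were measured on PacBio in 83 members, or 9.23%, against a background of 14.9% over all bins of the chromosome. On ONT 410 members, or 45.6%, lay under 40%, against 35.1% over all bins. Part of the ONT count came with CpGs that had a strand row at exactly 0. With those CpGs left out, 227 members, or 25.3%, lay under 40%, against 29.8% over all bins. Leaving them out removes low row values by construction, and a measured 0 cannot be told from a missing call. Whether the ONT share lay above or below the background thus depended on how zeros were treated.

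The name CpG-sparse held for only some of the members. The median member had 82 CpGs, while the median bin of the whole chromosome had 49 and the median bin between 24 Mb and the end of the long arm had 38. The counts had 2 peaks, and the members were divided at 75 CpGs, a value chosen after the counts were seen. On one side were 395 bins of 15 to 74 CpGs with a mean of 41.8 ± 14.4, and on the other 504 bins of 75 to 99 CpGs with a mean of 90.9 ± 6.11. They are called low-CpG and mid-CpG members below.

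Low-CpG members had a PacBio mean of 49.9% ± 13.6 and mid-CpG members of 66.0% ± 4.29. On ONT the means were 42.0% ± 11.8 and 42.6% ± 5.18. The difference of 16.1 points on PacBio was larger than the SD of either group, and that of 0.66 points on ONT was smaller. Across the low-CpG members the platforms ordered the bins alike, with Pearson r = 0.95 and Spearman rho = 0.92 over 395 bins. Across the mid-CpG members r was 0.16 and rho 0.22 over 504 bins. The PacBio SD of 4.29 points across the mid-CpG members was smaller than the 13.6 of the low-CpG members. A narrow range by itself lowers a correlation, and its part was not tested. All of these values are descriptions, since adjacent bins share reads, sequence and library.

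Within the low-CpG members the PacBio mean rose slowly with CpG count, from 48.4% ± 16.2 in 90 bins of 15 to 29 CpGs to 54.3% ± 8.80 in 66 bins of 60 to 74 CpGs. The 84 bins of 75 to 84 CpGs had 63.7% ± 5.52, and the 185 bins of 95 to 99 CpGs had 66.6% ± 3.41. Just inside the limit, the 35 bins of 99 CpGs had a median PacBio level of 65.9% (59.4 to 71.2%). Just outside, the 45 bins of 100 CpGs had a median of 66.6% (7.30 to 76.2%). The limit of 99 CpGs cut through bins of similar level, and the 163 bins of 100 to 104 CpGs, with 66.8% ± 5.77, were like the mid-CpG members.

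**Figure D1:**
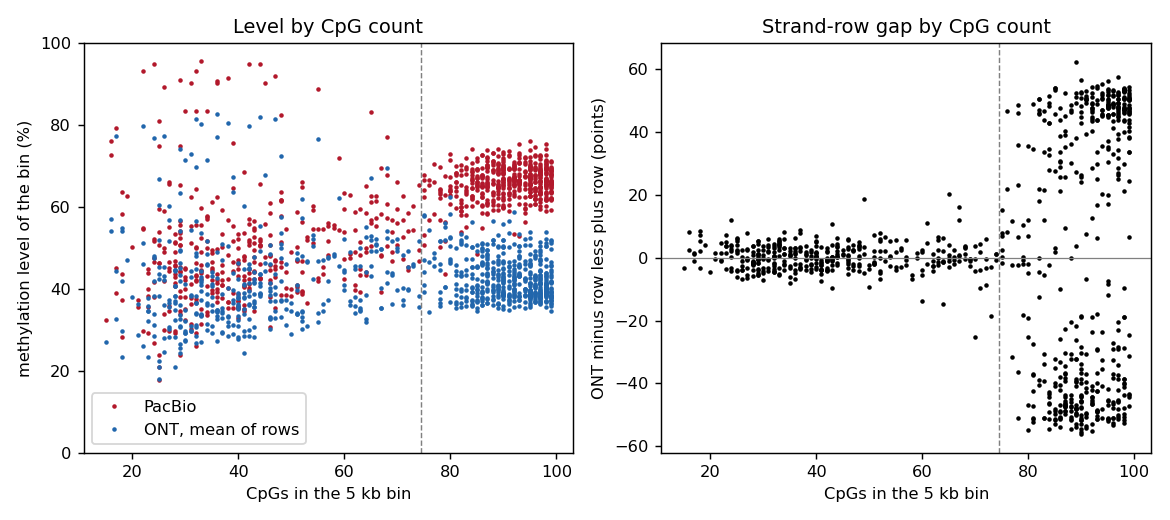
Methylation level (left, percent) and ONT strand-row gap (right, minus-strand row less plus-strand row, in points) of the 899 members against the number of CpGs in the bin, with 1 point per bin and platform. The dashed line marks the division at 75 CpGs; left of it all but 2 gaps are under 20 points, and right of it most bins lie above 20 or below -20 points.

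The strand rows of ONT differed widely in most mid-CpG members. ONT gives each CpG a row for the cytosine of each strand, and the gap is the mean of the minus-strand row less that of the plus-strand row, on the assumption that a row sits at its own strand's cytosine. The minus row exceeded the plus row by 20 points or more in 236 members, or 26.3%, against a background of 5.87% over all bins. The plus row exceeded the minus row by as much in 218 members, or 24.2%, against 2.42% over all bins. Of these 454 bins, 452 were mid-CpG members and 2 were low-CpG members.

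The mean size of the gap was 40.3 points ± 13.5 in the mid-CpG members and 3.27 points ± 3.03 in the low-CpG members. The gap was under 10 points in 384 of 395 low-CpG members and in 32 of 504 mid-CpG members, or 97.2% and 6.35%. The background was 87.6% over all bins, and 99.5% of the bins of 15 to 74 CpGs beyond the stretch were under 10 points. Among the 256 bins of 100 to 109 CpGs it averaged 42.8 points ± 13.1, close to the mid-CpG members. In the 115 bins of 110 or more CpGs it averaged 23.7 points ± 23.1 and was under 10 points in 59. Across those 115 bins the platforms had Pearson r = 0.22 and Spearman rho = -0.10. Beyond the stretch, 593 bins held 75 to 99 CpGs, and 0 of the 7089 bins there had a gap of 20 points or more. Before the stretch, 544 bins held 75 to 99 CpGs, and 242 of the 3523 bins there had such a gap. PacBio combines the strands, so the gap has no counterpart in that file. A strand difference in the DNA, the placement of reads by strand and base calling cannot be told apart as sources of the gap, since the ONT file holds no depth per strand, and their part was not tested. The same holds for every higher or lower row and ONT mean given below for these bins.

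The largest gap was 62.2 points, in the bin at 17720001-17725000, where the minus row was at 74.4%, the plus row at 12.2% and PacBio at 69.4%. In the next bin, 17725001-17730000, the rows were 69.99% and 12.5% and PacBio was 68.8%. The largest gaps the other way were -56.1 points at 21350001-21355000 and -55.6 points at 21340001-21345000. In the first of these the plus row was at 66.3%, the minus row at 10.2% and PacBio at 69.7%. In the second they were 66.4%, 10.8% and 60.1%. None of these bins overlapped an annotated gene, and in each the PacBio level lay closer to the higher row.

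Mid-CpG members lay almost wholly in long blocks between the gene islands. With interruptions of up to 2 bins allowed, 10 runs of at least 10 bins with 75 or more CpGs were found, of 135 to 1085 kb each. Members made up 43.3 to 76.9% of the bins of a block, and their PacBio means ranged from 63.7 to 67.5%. The SD over members within a block was 2.80 to 4.82 points. In 3 blocks the members with a gap of at least 20 points had the minus row higher throughout, in 2 the plus row, and in 5 both signs occurred.

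The run of 55 adjacent members at 21155001-21430000 shows such a plateau. Its 55 bins held 78 to 97 CpGs, all had the plus row higher by 45.9 to 56.1 points, and ONT stayed between 35.2 and 40.6%. PacBio ranged from 58.6 to 72.7% there. The other long runs of adjacent members, 114 bins at 23430001-24000000 and 56 bins at 23050001-23330000, held mostly low-CpG members, with median CpG counts of 35.5 and 33 and maxima of 82 and 91. Their gaps ran from -6.91 to 11.8 and from -6.91 to 8.24 points.

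**Figure D2:**
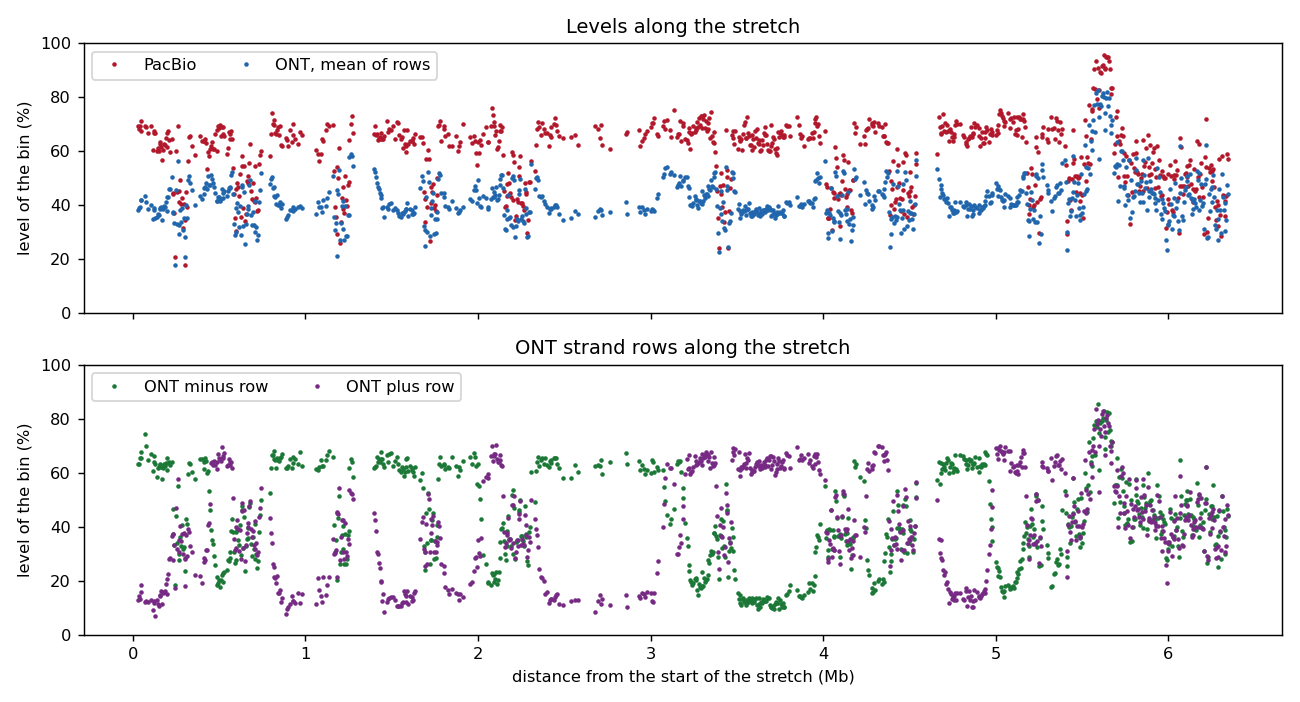
Levels of the 899 members (percent) against distance from the start of the stretch (Mb), with PacBio and the mean of the ONT rows above and the ONT minus-strand and plus-strand rows below, 1 point per bin. Bins of 100 or more CpGs are not drawn; the strand rows separate and change places in the blocks, meet in the gene islands, and stay together over the last 0.95 Mb.

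Outside genes, the gap grew with distance from the nearest gene over the 499 mid-CpG members that lay before the last segment, which starts at 23055001. The other 5, in that segment, are left out of the classes below and had a mean gap of 2.87 points ± 2.97. In the 19 mid-CpG members whose centre lay up to 10 kb from the nearest annotated gene it averaged 15.5 points ± 10.2. It was 27.1 ± 9.55 at 10 to 25 kb (43 bins), 39.5 ± 6.66 at 25 to 50 kb (61 bins) and 45.2 ± 6.48 at 50 to 75 kb (62 bins). Farther out the mean levelled off, at 46.9 ± 4.98 from 75 to 100 kb (58 bins). It was 45.4 ± 10.6 from 100 to 150 kb (100 bins) and 44.0 ± 12.7 beyond 150 kb (131 bins). The spread widened there, and some bins far from genes had small gaps where the rows changed places within a block. The gap was 6.57 points at 20725001-20730000 and -8.36 points at 20735001-20740000, the latter 295970 bp from the nearest gene.

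One row carried nearly all of the change with distance from genes. The rows are ordered here by their value in each bin, so that a higher and a lower row exist by construction. The lower row averaged 45.2% ± 6.995 within 10 kb of a gene and 16.6% ± 4.10 at 75 to 100 kb. The higher row averaged 60.7% ± 4.23 and 63.5% ± 2.42 in the same classes, and PacBio 64.7% ± 4.52 and 66.4% ± 4.13. The ONT mean of the rows accordingly fell from 53.0% ± 2.71 to 40.1% ± 2.27 where PacBio differed by less than 1 SD. Median PacBio depth per bin averaged 38.7 and 39.9 reads, and CpG counts 84.9 and 92.2 per bin, in these classes. Their part in the result was not tested. A further 25 mid-CpG members had their centre inside a gene, with a mean gap of 23.3 points ± 15.8, higher than in the class up to 10 kb. Of these, 16 lay in a ZNF280A pseudogene annotated over 138 kb (LOC132344452), which runs through a block, and had a mean gap of 33.8 points ± 7.89. The 9 in other genes had 4.59 points ± 4.35. In the low-CpG members the mean gap was between 2.26 and 3.80 points at every distance.

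**Figure D3:**
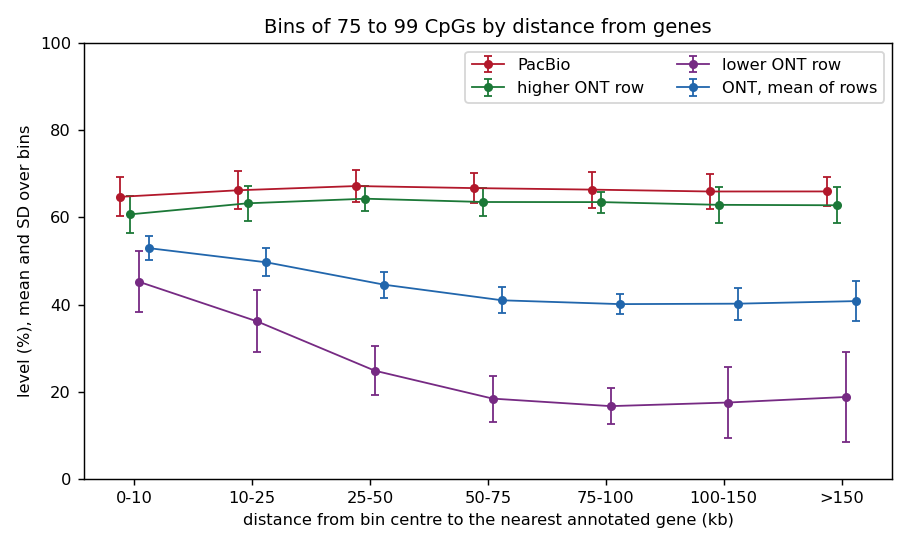
Level (percent, mean and SD over bins) of the mid-CpG members before the last 0.95 Mb, by distance from the bin centre to the nearest annotated gene (kb), for PacBio, the higher and the lower ONT row of each bin and the mean of the rows. Bins centred inside a gene are left out; the lower row falls from 45.2 to 16.6% by 75 to 100 kb, while PacBio and the higher row change by under 4 points.

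The sign of the gap went with the direction in which the pattern of CpGs lay. TSPY1 copies stand at the edges of the gene islands. Among mid-CpG members within 100 kb of a TSPY1 copy and with a gap of at least 20 points, the plus row was higher in 99 of 99 bins where the nearest copy lay on the plus strand. Where it lay on the minus strand, the minus row was higher in 39 of 42 bins and the plus row in 3. The rows averaged 64.8% (plus) and 24.995% (minus) beside plus-strand copies, and 30.2% (plus) and 60.6% (minus) beside minus-strand copies, at PacBio means of 68.1% and 66.8%.

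The order of distances between successive CpGs gave the direction without reference to methylation. Words of 3 successive distances were collected from 129 bins of 100 or more CpGs that lay 10 to 150 kb from a minus-strand TSPY1 copy, none of them members. Each member was then read forward and backward against these words. Of the 452 mid-CpG members with a gap of at least 20 points, 234 matched better forward and had the minus row higher. Another 215 matched better backward and had the plus row higher. The remaining 3 went the other way. A mid-CpG member had a median of 24.2% of its words among those collected, in its better direction, and a low-CpG member a median of 0%.

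A row defined by direction was therefore high nearly everywhere. In the 493 mid-CpG members with a direction, before the last 0.95 Mb of the stretch, the minus row of forward bins and the plus row of backward bins together averaged 62.7% ± 5.22. The opposite rows averaged 22.3% ± 11.3, and PacBio 66.2% ± 3.98. The high row lay 3.50 points below PacBio on average and the low row 43.9 points. Forward and backward bins had similar PacBio means, 65.5% over 260 bins and 66.996% over 233.

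The same local patterns of CpGs differed with position. There were 590 words found both within 25 kb of a gene and more than 75 kb from one. At the same word, the low row averaged 33.3% near genes and 17.1% far from them, a change of -16.2 points ± 11.4 (SD over words), and it was lower far away at 545 of 590 words. The high row changed by -1.08 points ± 8.80, and PacBio by -1.11 ± 8.03, both smaller than their SD. Words recur along a block and share reads, so they are not replicates.

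Mid-CpG members also differed from low-CpG members in how their CpGs were laid out. The commonest distance between neighbouring CpGs was 12 bp in the mid-CpG members, at 10.6% of distances, against 1.69% in the low-CpG members. Even distances made up 57.9% and 51.3%. The 26520 CpGs of the bins with 100 to 109 CpGs had 11.8% at 12 bp, close to the mid-CpG members. The ONT plus row was exactly 0 at 10.7% of the CpGs of mid-CpG members and at 1.23% of those of low-CpG members, and the minus row at 6.50% and 1.05%. The file does not tell a measured 0 from a missing call.

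CpGs with a close neighbour were more methylated in both groups. In low-CpG members, CpGs whose nearest neighbour was at most 12 bp away averaged 67.8% ± 22.0 on PacBio, and those with none within 100 bp averaged 38.3% ± 26.0. In mid-CpG members the same classes had 74.9% ± 16.3 and 49.8% ± 20.4. ONT gave 57.2% and 32.5% in low-CpG members and 46.3% and 31.3% in mid-CpG members. On PacBio both differences were larger than the SD over single CpGs, and on ONT that of the low-CpG members was. At single CpGs, PacBio was under 20% at 18.5% of the CpGs of low-CpG members and at 2.99% of those of mid-CpG members.

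The low-CpG members lay mostly in 9 gene islands of 85 to 165 kb between the blocks and a last segment of 945 kb. An island holds a set of genes, typically TSPY1, a ZNF280B pseudogene, PRAME and a ZNF280A pseudogene. The set stands once in some islands, such as 17880001-17975000. In others, such as 21665001-21830000, the genes run in mirrored order on the sides of ZNF280A. The members of the 9 islands had PacBio means of 42.3 to 47.4%. The SD within an island was 7.50 to 12.1 points, which is more than the difference between any of the means. Over the 213 low-CpG members before the end of the last TSPY3 copy (position 23051749) the means were 45.1% ± 9.13 on PacBio and 37.1% ± 7.49 on ONT. The 182 low-CpG members after it had 55.6% ± 15.7 and 47.7% ± 13.3, a difference of 10.6 points on each platform. Without the 20 members inside TXLNG, chosen after their levels were seen, the difference was 6.47 points on PacBio and 7.14 on ONT. For comparison, 6410 bins of 15 to 74 CpGs beyond the stretch had 46.6% ± 9.95 and 39.1% ± 8.28.

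The lowest members were all in gene islands and held 25 CpGs each. The bin at 17950001-17955000 had 17.7% on PacBio and 20.9% on ONT, and holds the start of the ZNF280B pseudogene LOC132344439. The bin at 17895001-17900000 had 20.8% and 17.9%, with no annotated gene. The bin at 21045001-21050000 had 23.9% and 22.5%, and holds the ZNF280B pseudogene LOC132344640. Of the 83 members under 40% on PacBio, 63 lay before the last segment and 0 were mid-CpG members.

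Among the 77 annotated genes of the stretch, 58 had an end in a member bin and 53 had their start in one. The level at a gene start was taken over all CpGs within 1 kb on either side, and copies are repeats of 1 library rather than replicates. The 4 families of the islands differed in the level at their start, in the order TSPY1, ZNF280A, PRAME and ZNF280B on both platforms. Over the 53 genes that start in a member, the start was below the gene body in 31 on PacBio and in 38 on ONT. The lowest and highest copies named below are those on PacBio, each with its PacBio and then its ONT level.

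TSPY1 had 13 copies, all starting in members, with 55.7% ± 6.57 on PacBio and 42.8% ± 5.63 on ONT at the start. The lowest copy was LOC132344629 (17963609-17967153, minus strand), with 42.3% and 39.6%, while the lowest on ONT was LOC132344643 with 33.0%. The highest was LOC132344644 (22029414-22032986, plus strand), with 66.7% and 52.5%. The start was below the gene body in 2 of 13 copies on PacBio and in 8 of 13 on ONT, so the direction depended on the platform. The 15 TSPY3 copies lie in bins of 100 or more CpGs, and 1 of them ended in a member.

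PRAME had 11 copies, with 32.5% ± 3.81 on PacBio and 27.6% ± 2.28 on ONT at the start, and 56.3% ± 2.38 and 46.2% ± 2.15 over the body. The start was lower than the body in 11 of 11 copies on each platform. The lowest start was that of LOC132344514 (22892353-22897570), with 27.9% and 26.2%, while on ONT it was LOC132344490 with 22.0%. The highest was that of LOC132344484 (17901134-17906316), with 38.3% and 28.8%, while on ONT it was LOC132344486 with 30.1%.

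The 9 ZNF280A pseudogenes had 41.1% ± 5.06 on PacBio and 33.7% ± 3.28 on ONT at the start, close to 41.5% ± 11.4 and 33.9% ± 5.54 over the body. The lowest start, at 30.8% and 27.3%, was that of LOC132344452 (22904515-23042746), and the highest, at 47.3% and 37.1%, that of LOC132344451 (22103390-22109655). On ONT the highest was LOC132344447, with 37.9%. The start was below the body in 3 of 9 copies on each platform. ZNF280B had 14 copies, all pseudogenes, of which 13 started in members. Their starts were the lowest of the 4 families, with 25.1% ± 5.67 on PacBio and 22.0% ± 4.57 on ONT, over 8 to 12 CpGs each. They ranged on PacBio from 15.9% in LOC132344439 (17952973-17962590) to 31.7% in LOC132344445 (19801440-19810989). On ONT these copies had 16.7% and 23.6%, and the highest was LOC132344634, with 33.7%. The start was below the body in 11 of 13 copies on each platform. The start window takes in the first 1 kb of the body, which is most of it in the short copies. One of these, LOC132344640, is 1.49 kb long and had 25.3% at the start and 25.9% over the body on PacBio. In such copies start and body are nearly the same CpGs.

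The PacBio ranges of PRAME (27.9 to 38.3%) and TSPY1 (42.3 to 66.7%) starts did not overlap. Families next to each other in the order overlapped, namely TSPY1 with ZNF280A, ZNF280A with PRAME, and PRAME with ZNF280B. On ONT, PRAME starts ranged from 22.0 to 30.1% and TSPY1 starts from 33.0 to 52.5%, again without overlap.

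**Figure D4:**
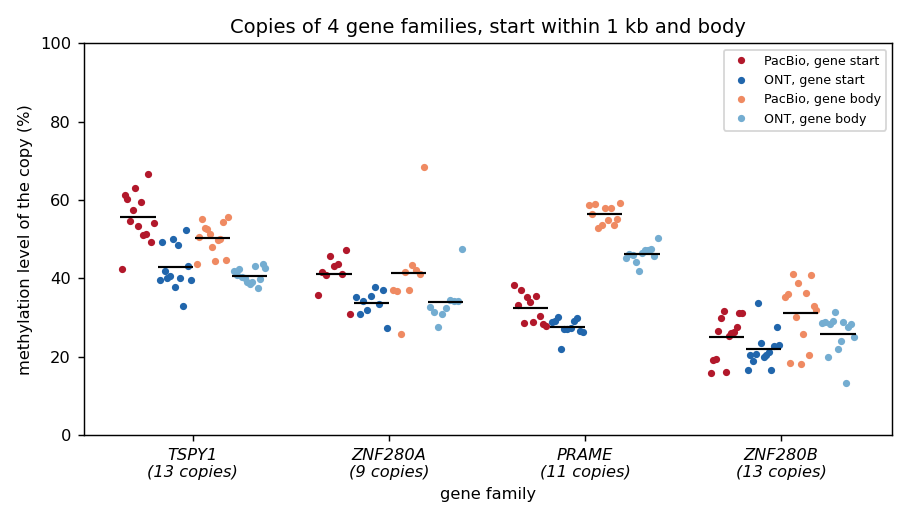
Methylation level (percent) of each copy of 4 gene families at the gene start (all CpGs within 1 kb) and over the gene body on PacBio and ONT, for copies that start in a member; 1 point per copy, with the mean as a black line. PRAME starts lie below PRAME bodies in 11 of 11 copies on both platforms; the single high ZNF280A body, at 68.4% on PacBio, is the copy annotated over 138 kb.

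Genes without a family name or with a single copy were few. LOC132344502 (21094826-21100071) and LOC528601 (22091185-22096441) lie among the islands with 78 CpGs each. They had body levels of 51.9% and 53.8% on PacBio and 46.1% and 45.8% on ONT. The gene table used for families gave neither of them a strand or a name.

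The last segment, from 23055001 on, had no such blocks and 9 annotated genes. It held 187 members, 5 of them mid-CpG, and 0 had a gap of 20 points or more. Its genes start with a pair of OR4C3D olfactory receptor pseudogenes, with 39.8% (LOC132344453) and 20.9% (LOC132344650) on PacBio at the start and 34.8% and 16.9% on ONT. OR4C6, an olfactory receptor gene (LOC132342092, 23093760-23094689), had 54.1% and 45.3%. The lncRNA LOC132344651 (23124168-23124826) had 15.3% on PacBio and 24.5% on ONT over 12 CpGs. Its median PacBio depth was 118.5 reads, against 41 over the members, and the part of this depth in the result was not tested.

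The highest members lay in TXLNG, which encodes taxilin gamma, a protein of the taxilin family that binds syntaxins. TXLNG (LOC132344515) spans 23229408-23332043 on the minus strand. The 20 members wholly inside it had 88.9% ± 5.82 on PacBio, with a range of 76.1 to 95.7%, and 75.5% ± 6.51 on ONT, with a range of 57.0 to 82.7%. The other 162 low-CpG members of the segment had 51.5% ± 10.9 and 44.2% ± 9.33. The 3 highest were 23275001-23280000 with 95.7%, 23290001-23295000 with 95.1% and 23295001-23300000 with 94.9% on PacBio. On ONT they had 80.2%, 79.9% and 82.0%.

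In all, 21 members exceeded 80% on PacBio, of which 18 lay wholly inside TXLNG. The other 3 adjoined or crossed its far end, over 23215001-23230000, with 83.4%, 90.3% and 83.1% on PacBio. Over all bins of the chromosome 11.0% exceeded 80% on PacBio, against 2.34% of the members. The 20 members within 100 kb past the end of TXLNG ranged from 35.0 to 90.3% on PacBio and from 34.4 to 77.1% on ONT, and overlapped with those inside on both platforms. The 19 members within 100 kb before the start ranged from 32.9 to 74.8% and from 35.1 to 63.4%, and overlapped with those inside on ONT but not on PacBio.

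The start of TXLNG lies in a bin outside the set, 23330001-23335000, with 100 CpGs. It had 7.30% on PacBio and 4.19% on ONT, against 83.4% and 71.4% in the member on the gene side and 59.5% and 52.1% in the member before the start. Over the 82 CpGs within 1 kb of the start the levels were 3.30% and 1.36%. Of the 371 bins of 100 or more CpGs, 2 were under 40% on PacBio. The other was 23425001-23430000, with 255 CpGs, at 7.86% on PacBio and 6.24% on ONT and with no annotated gene. Its member neighbours had 56.6% and 32.9% on PacBio.

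**Figure D5:**
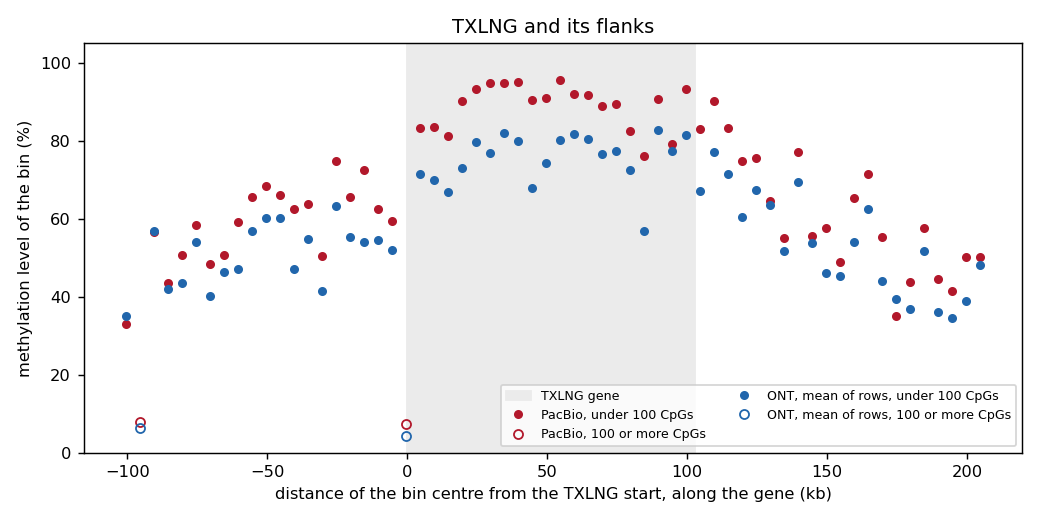
Methylation level of 5 kb bins (percent) in and around TXLNG against the distance of the bin centre from the gene start, counted along the gene (kb), for PacBio and ONT. Filled points are members, open points are bins of 100 or more CpGs; members inside the gene (shaded) lie at 76.1 to 95.7% on PacBio, and the open points at the start and about 95 kb before it lie under 10%.

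The segment had means of 55.9% on PacBio and 47.9% on ONT over its 187 members. The HSFY pseudogene LOC132344652 (23570351-23572076) had 54.9% on PacBio and 44.4% on ONT at the start. The lncRNA LOC132344516 (23622137-23634409) had 51.4% and 37.3%, and the SHROOM2 pseudogene LOC132344454 (23987118-23989508), related to an actin-binding protein gene, had 47.2% and 35.8%. The ZNF280B pseudogene LOC132344455 begins at 23998913 in the last member and runs out of the stretch, with its own start outside.

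Depth varied little between these groups. The median depth per bin averaged 42.8 reads ± 7.66 in low-CpG and 40.1 ± 6.60 in mid-CpG members. The shallowest member, 20785001-20790000, had a median of 16 reads, PacBio 75.4%, ONT 51.3% and a gap of -9.55 points. The deepest, 23875001-23880000, had a median of 77.5 reads, 29.95% on PacBio and 27.9% on ONT.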

How the data were processed

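For PacBio, the authors scored CpGs in HiFi reads with Primrose, aligned with pbmm2 and combined both strands per CpG. The deposited file holds, for each CpG, its level in percent, a read count, and model-estimated counts of reads with and without the modification. For ONT, the authors called bases with Dorado, aligned with Winnowmap and summarised calls with modbam2bed. The deposited file gives a percent per strand and CpG, without counts. The files run in opposite directions, and both were converted to assembly positions. Around TSPY1 starts, copies on opposite strands shared 35.2% of CpG offsets, and 2.15% when shifted by 100 bp. Around PRAME starts the shares were 7.21% and 0.74%.

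CpGs with at least 10 PacBio reads were averaged without weights in bins of 5 kb, on both platforms. Gene positions came from the RefSeq table of ARS-UCD2.0. Families and strands came from the study's gene table where start and end matched (70 of 77 genes). Named bins were the 3 lowest, the 3 highest, the 2 largest gaps each way and the 3 longest runs. Named genes were those of no multi-copy family with an end in a member, and each family's lowest and highest copy with at least 5 CpGs around the start. The depth extremes, the low bins of 100 or more CpGs, the extreme copies on ONT and the flanks of TXLNG were added after their values were seen. Members and lists were chosen with earlier results of these data known. The alternatives were other read minimums, CpG limits, bins, weights, strand rows and thresholds. Tables were made with pandas 2.3.3 and numpy 2.4.6 in Python 3.11.15, intervals with scipy 1.17.1 and plots with matplotlib 3.10.9. Simulated levels at the real CpG positions were used to test the scripts.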

Additional observations from a re-analysis of the deposited data

How the results depend on the processing

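No paired analysis was possible because each platform has 1 library and no group has replicates. Of 99 values under alternative settings, 80 stayed within 1.74 points of the value reported above, or within a ratio of 1.5 for counts. That width is the distance from the centre of the 95% Wilson interval of a median PacBio bin to its bounds, and was used for ONT as well, whose depth is unknown. The interval takes model-estimated counts as independent reads, so the width is a yardstick and no measure of error in these means. The divisions at 70 or 80 CpGs and words of 2 or 4 distances, chosen after seeing the data, were among these. So were the values at a minimum of 4 reads, which could not change because every CpG of the members had at least 10 reads. A minimum of 20 reads kept 898 of the 899 bins. With members limited to 5 to 49 CpGs (289 bins), the PacBio mean was 48.8% and the difference from denser bins -17.9 points. Of the 289 bins, 73 were under 40% on PacBio, a larger share than the 9.23% of all members, and 164 on ONT. A strand gap of 20 points in either direction occurred in 0 of them. Averaged over all CpGs, the PacBio mean was 62.0% and the difference -4.49 points. With CpGs at an ONT row of exactly 0 left out, the ONT mean was 44.1% and 227 bins were under 40%. The ONT difference between members and denser bins was -13.6 points on the minus row alone and reversed to 8.43 points on the plus row alone. Bins of 10 kb (451 members) gave 32 and 189 bins under 40% on PacBio and ONT, and 114 bins with a gap of 20 points in each direction. Under 30% there were 14 of 899 members on PacBio and 44 on ONT. No share over all bins of the chromosome was computed at 30% or for bins of 10 kb, so those counts stand without a background. By construction the stretch holds fewer bins at 10 kb, and leaving out zeros removes low row values. The causes of the other changes were not tested. Leaving out the members inside TXLNG, an alternative added after seeing the data, lowered the difference of the last segment from the rest to 6.47 points on PacBio and 7.14 on ONT.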
